A study of Homo sapiens with 12 samples.

Results

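JVM2, 1 of the 3 mantle cell lymphoma (MCL) cell lines sequenced in this series, was compared with the lines JEKO1 and MAVER1. The 4 JVM2 libraries were set against the 4 JEKO1 and the 4 MAVER1 libraries, 12 in all, and each library was paired with those that carried the same treatment label. A gene was counted as setting JVM2 apart when it was called against each other line separately (adjusted p-value under 0.05 and a log2 difference of at least 1 in size, with the same sign) and differed at least 2-fold in that direction from both lines under every treatment. By this rule 3539 of 18084 genes tested set JVM2 apart, 1987 of them higher and 1552 lower. Each line gave 1 untreated library (Ctrl), 1 after ironomycin (Irono), 1 after ibrutinib (Ibru) and 1 after both drugs (Irono+Ibru), all taken at 48 h. Ironomycin sequesters iron in lysosomes, and ibrutinib inhibits Bruton's tyrosine kinase (BTK). JVM2 received 250 nM ironomycin and 1.5 μM ibrutinib, JEKO1 50 nM and 0.5 μM, and MAVER1 250 nM and 6.25 μM. JVM2 was grown in RPMI medium with 10% FCS and seeded at a lower density, JEKO1 and MAVER1 in the same medium with 20% FCS, so the effects of line, serum, seeding density and drug dose cannot be told apart. Each line is 1 culture per treatment, and p-values measure only how steady a line difference was over the 4 treatments, not how MCL tumours differ from each other.

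MCL is a lymphoma of mature B cells whose defining lesion, the translocation t(11;14), places CCND1, the cyclin D1 gene, under the control of the immunoglobulin heavy chain locus. Most MCL also expresses the transcription factor SOX11 and the surface protein CD5. D-type cyclins pair with CDK4 or CDK6 and inactivate the RB protein, which lets cells enter S phase. JVM2 is known as a line that carries Epstein-Barr virus (EBV), and JEKO1 and MAVER1 as lines without it. In B cells the latent viral protein EBNA2 acts through the DNA-binding protein RBPJ, and LMP1 signals through NF-kB as an activated CD40 receptor would. Viral transcripts were not analysed here, and no part of the virus in the differences below was tested.

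Library totals were alike, from 35448523 to 38630809 counted reads, and mitochondrial transcripts took 0.883% to 2.18% of them. Log2 CPM (normalized counts scaled to library size) correlated across genes at 0.991 to 0.995 between JVM2 libraries, at 0.973 to 0.992 between JEKO1 libraries and at 0.981 to 0.995 between MAVER1 libraries. Between Ctrl libraries the correlation was 0.765 for JVM2 and JEKO1, 0.809 for JVM2 and MAVER1 and 0.885 for MAVER1 and JEKO1, across 18084 genes that are not independent replicates. The pan-B genes MS4A1 (CD20), CD79A and PAX5 were present in all 12 libraries, with 156 CPM as their lowest value, that of PAX5 in MAVER1 with Irono+Ibru.

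Starting from the Ctrl libraries, 2582 genes were at least 2-fold higher in JVM2 than in both other lines and 2269 were at least 2-fold lower, with 1 library per line and no test. Of the higher genes, 2209 (85.6%) were again at least 2-fold above both lines in the Irono libraries, 2320 (89.9%) in Ibru and 2110 (81.7%) in Irono+Ibru. Of the lower genes, 1839 (81%) were again lower by this rule in Irono, 1869 (82.4%) in Ibru and 1787 (78.8%) in Irono+Ibru. The opposite direction was seen for 3, 2 and 5 genes in these treatments. The 2-fold rule was met in all 4 treatments by 1987 of the higher genes (77%) and 1552 of the lower ones (68.4%). These counts equal those of the full rule, so the tests against each line removed no further gene.

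In the test over all 12 libraries (edgeR's quasi-likelihood test, Benjamini-Hochberg adjusted), 7236 genes (40.0% of those tested) differed between JVM2 and the mean of the other lines, 3740 (20.7%) higher and 3496 (19.3%) lower. Scaled to library totals, the split turned to 3450 higher and 3865 lower (47.2% higher, against 51.7%). Taken alone, JEKO1 differed from JVM2 in 8291 genes (45.8%) and MAVER1 in 7162 (39.6%), whereas 6092 (33.7%) separated MAVER1 from JEKO1. The stricter rule kept 3539 genes (19.6%), with 1987 (11.0%) higher and 1552 (8.58%) lower, and these shares of all genes tested are the background of each list count given further on. The same rule with JEKO1 as the line set apart gave 2294 genes (12.7%), and with MAVER1 it gave 1371 (7.58%). TRAF3, an inhibitor of noncanonical NF-kB signaling chosen here after its values were seen, shows why both lines were required. Its mean was 159.9 CPM in JVM2, 141 in JEKO1 and 0.0338 in MAVER1, so its log2 difference of 6.13 ± 0.13, adjusted p = 1.82e-11 from the mean of the other lines came from MAVER1 alone. Log2 differences are fitted values against the mean of JEKO1 and MAVER1 unless another line is named, and the value after ± is a standard error derived from the test, as the size of the difference divided by the square root of its F statistic. The 4 libraries of a line are its 4 treatments, so this error covers their spread after the treatment term and not that of repeat cultures.

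**Figure D1:**
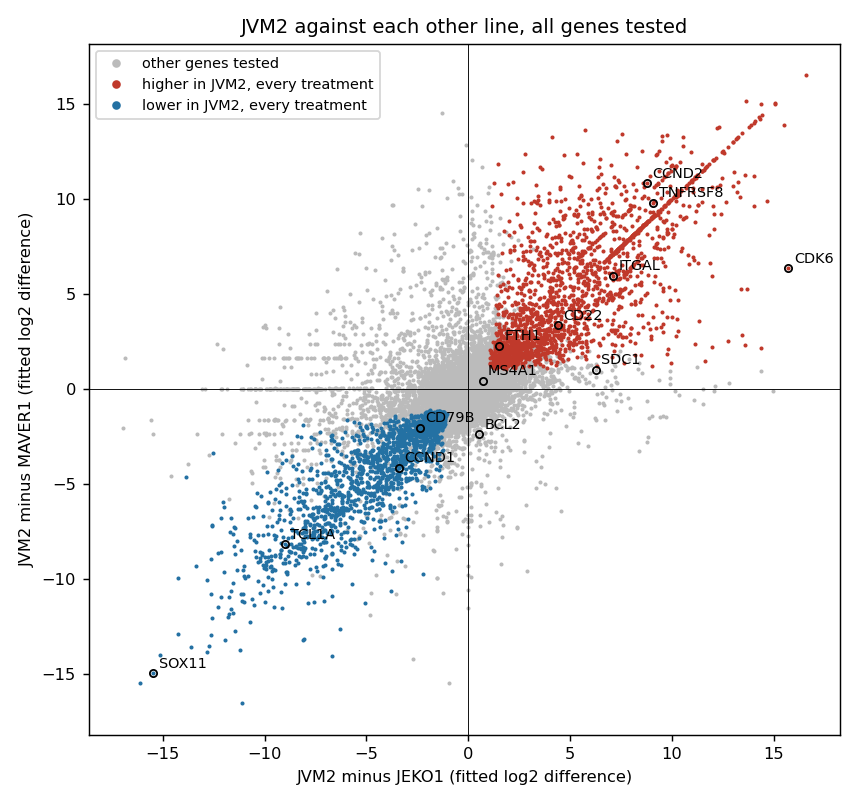
Each point is 1 of the genes tested, with the fitted log2 difference of JVM2 minus JEKO1 on the horizontal axis and of JVM2 minus MAVER1 on the vertical axis; red and blue points are the 1987 genes higher and the 1552 genes lower in JVM2 under every treatment, and grey points are the other genes. SOX11, TCL1A and CCND1 lie in the lower left, CCND2, TNFRSF8, ITGAL and CD22 in the upper right, and MS4A1 close to the centre. Points on the far diagonal are genes without reads in a line, whose fitted difference depends on the prior count.

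A minority of the genes that set JVM2 apart had no reads on one side. No read was counted in any JEKO1 or MAVER1 library for 211 of the 1987 higher genes, and in no JVM2 library for 170 of the 1552 lower genes. Among all genes tested, 211 had no read in JEKO1 and MAVER1 and 384 had none in JVM2. Such genes entered the test only through the lines that had them, so the 211 had to differ. The smallest of the 8 differences (2 lines, 4 treatments) was at least 3 on the log2 scale, or 8-fold, for 803 higher and 472 lower genes. A mean log2 CPM of 1 or more was reached by 779 higher genes (39.2%) and 854 lower genes (55%), against 64.5% of all genes tested. This mean runs over all 12 libraries, of which only 4 are JVM2. A gene high in JVM2 alone thus gets a low mean, and these shares do not give abundance within JVM2. Protein-coding genes made up 79.9% of the higher and 75.2% of the lower genes with a known biotype, against 77.7% of all. At the threshold, the smallest difference was -1.0003 for ZNF75A and -1.0016 for CNPY4, just inside, and -0.9997 for BRF1 and -0.9994 for PPFIBP2, just outside.

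Genes were ranked by their gap only where the mean log2 CPM over all 12 libraries was 1 or more. Among these, the widest gaps in favour of JVM2 included genes of a cytokine receptor subunit, a D cyclin, a TNF receptor and cytoskeletal proteins. BTLA, with a smallest difference of 8.64, lay below that mean and was not ranked. Values are TMM-normalized CPM and are given, here and throughout, in the order Ctrl, Irono, Ibru, Irono+Ibru. FRMD4A, a scaffold protein of cell polarity, stood at 333, 323, 371 and 323 CPM in JVM2, 0.33, 0.359, 0.279 and 0.564 CPM in JEKO1 and 0.196, 0.293, 0.0814 and 0.419 CPM in MAVER1. IL2RB, the beta chain of the IL-2 and IL-15 receptors, stood at 275, 278, 262 and 260.1 CPM in JVM2, 0.737, 0.55, 0.127 and 0.47 CPM in JEKO1 and 0.363, 0.0267, 0.516 and 0.209 CPM in MAVER1. TNFRSF8 (CD30), a TNF receptor of activated lymphocytes, had 251, 280.0, 306 and 354 CPM in JVM2, 0.889, 0.311, 0.761 and 0.259 CPM in JEKO1 and 0.363, 0.32, 0.488 and 0.157 CPM in MAVER1. In these genes, which were chosen for a wide gap, each JVM2 library lay over 200 CPM and each other library under 1 CPM. ACTN1, an actin crosslinking alpha-actinin, was at 255, 226, 265 and 230.5 CPM in JVM2, 0.94, 1.24, 0.812 and 1.6 CPM in JEKO1 and 0.0838, 0.0267, 0.353 and 0.235 CPM in MAVER1. GSDME, a gasdermin that forms pores when caspase-3 cleaves it, was at 159, 177, 156 and 188 CPM in JVM2, 0.229, 0.335, 0.533 and 1.46 CPM in JEKO1 and 0.699, 0.721, 1.33 and 0.549 CPM in MAVER1. For GSDME the highest of the other libraries was JEKO1 with both drugs, far under every JVM2 library. For SLAMF7, a surface receptor of plasma and NK cells, the libraries had 198, 214, 226 and 222 CPM in JVM2, 0.788, 1.32, 0.406 and 0.588 CPM in JEKO1 and 0.894, 1.12, 2.06 and 1.02 CPM in MAVER1. The rest of the 12 were FHOD3 (an actin-organizing formin), ANO10, IPCEF1, TBC1D4 (a Rab GTPase-activating protein), CYS1 and CCND2, which is described with the cell cycle genes. Their log2 differences from the mean of the other lines ran from 7.15 for FHOD3 to 10.08 for FRMD4A among the 12, with adjusted p-values of at most 5.05e-10.

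Among the 12 genes with the widest gap against JVM2, ranked under the same minimum, RUBCNL, SOX11 and ARPP21 had no read in any JVM2 library. With 3 reads per library as the floor, RUBCNL was at least 1816-fold, SOX11 at least 1332-fold and ARPP21 at least 640.4-fold lower in JVM2 than in the nearer of the other lines. RUBCNL (Pacer), a regulator of autophagosome maturation, had 0 CPM in every JVM2 library, 181, 239.6, 257 and 247 CPM in JEKO1 and 129.5, 166, 146 and 160.4 CPM in MAVER1. DTX1 (Deltex1), a ubiquitin ligase of the Notch pathway, had 0.199, 0.082, 0.139 and 0.189 CPM in JVM2, 506, 375, 585 and 409 CPM in JEKO1 and 581, 509, 636 and 472 CPM in MAVER1. PLD4, an endolysosomal exonuclease of B cells and dendritic cells, had 0.114, 0.0547, 0.0833 and 0.027 CPM in JVM2, 326, 263, 229 and 126 CPM in JEKO1 and 312, 261, 184 and 138 CPM in MAVER1. Both genes were counted in every JVM2 library, but with 22 reads in all for DTX1 and 10 for PLD4. AFF3, a nuclear protein of the super elongation complex family, had 1 read over the JVM2 libraries, against 220.3, 162, 261 and 166 CPM in JEKO1 and 74.2, 65.5, 99.4 and 73.8 CPM in MAVER1. LEF1, a transcription factor at the end of the Wnt pathway, had 1 read in JVM2, against 56.2, 70, 77.1 and 99.9 CPM in JEKO1 and 153, 135, 171 and 141 CPM in MAVER1. TCL1B, a coactivator of AKT next to TCL1A, had 3 reads in JVM2, and ADD2 (beta-adducin) and UCHL1 (a deubiquitinating enzyme of neurons) had 2 reads each. CHST15, a sulfotransferase, had 10 reads in JVM2, as did ZNF608. In JEKO1 and MAVER1 all of these 12 genes were at 29.4 CPM or more in every library. They were chosen by the widest gap, so the lack of overlap with JVM2 follows from the choice.

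**Figure D2:**
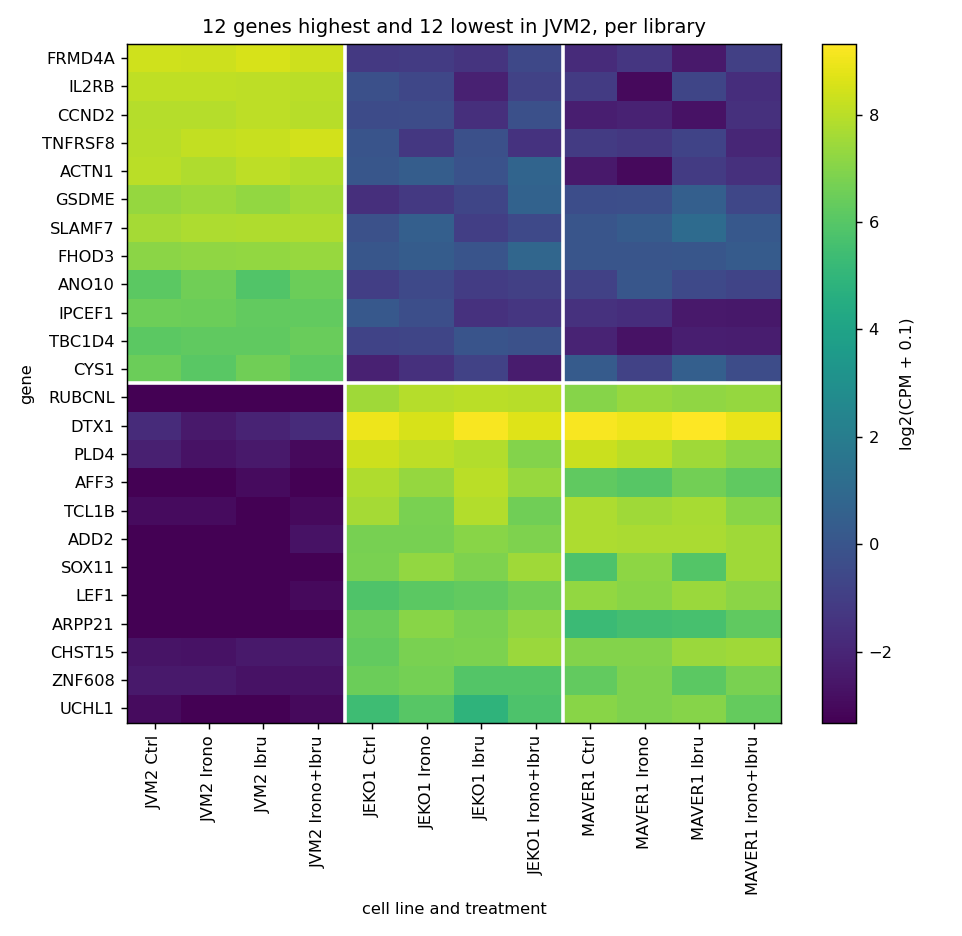
Colours give log2(CPM + 0.1) of the 12 genes with the widest gap above (top) and the 12 with the widest gap below (bottom) both other lines, for each of the 12 libraries on the horizontal axis. The 4 JVM2 columns are uniformly bright for the upper block and dark for the lower block, and the JEKO1 and MAVER1 columns are the reverse under each treatment.

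Single G1 regulators differed widely between JVM2 and the other lines. Of 24 tested genes of the D cyclins and RB axis (24 listed), 4 were higher (CCND2, CDK6, CDKN1A and MDM2) and 4 lower (CCND1, CDKN1C, CDKN2C and E2F1), or 33.3% together beside 19.6% of all genes tested, and 16 were not in the set. Their median log2 difference was 0.14 (0.04 with genes at 0 in a line set to their bound), against -0.02 over all genes tested. CCND1 was at 320.0, 220.2, 299 and 217 CPM in JVM2, 3214, 2336, 3545 and 2169 CPM in JEKO1 and 4299, 4535, 4654 and 4787 CPM in MAVER1. JVM2 thus had CCND1 in all 4 libraries, at a level 10.7 times below JEKO1 and 17.3 times below MAVER1 on the mean (log2 difference -3.78 ± 0.15, adjusted p = 1.35e-09). CCND2, the cyclin D2 gene, ran the other way, with 241, 242, 268 and 252 CPM in JVM2, 0.635, 0.67, 0.228 and 0.752 CPM in JEKO1 and 0.112, 0.133, 0.0543 and 0.235 CPM in MAVER1 (log2 difference 9.81 ± 0.18, adjusted p = 7.77e-12). CCND3 (cyclin D3) had a mean of 96.2 CPM in JVM2, 68.9 in JEKO1 and 41.2 in MAVER1 and was not in the set. CDK6, a partner kinase of the D cyclins, had 184, 183, 152 and 177 CPM in JVM2, 0 CPM in every JEKO1 library and 2.1, 3.76, 1.44 and 1.57 CPM in MAVER1. CDK4, the other partner, had 281, 274, 284 and 267 CPM in JVM2, 682, 580.1, 705 and 441 CPM in JEKO1 and 397, 300.1, 338 and 254 CPM in MAVER1. Its difference from the mean of the other lines was under 2-fold (log2 difference -0.65 ± 0.09, adjusted p = 6.43e-05). It came mainly from JEKO1, with -1.10 from that line and -0.20 from MAVER1 (adjusted p = 0.108 for MAVER1). Among inhibitors of these kinases, CDKN2C (p18) had 13, 8.78, 12.1 and 8.8 CPM in JVM2, 100.2, 71.8, 116 and 66.8 CPM in JEKO1 and 163, 146, 169 and 120.1 CPM in MAVER1, a gap of the same direction in every treatment. CDKN1C (p57) had 0.0851, 0.137, 0.333 and 0.459 CPM in JVM2, 12.2, 38, 12.9 and 27.1 CPM in JEKO1 and 19.9, 23.6, 10.6 and 31.5 CPM in MAVER1. E2F1, an RB-bound activator of S-phase genes, was lower in JVM2 (log2 difference -1.29 ± 0.08, adjusted p = 7.69e-08), and RB1 itself did not pass the test (0.16 ± 0.09, adjusted p = 0.127).

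CDKN1A, MDM2, BAX and FAS, which act in cell cycle arrest, protein turnover and cell death, were higher in JVM2. CDKN1A, the p21 inhibitor of cyclin-dependent kinases, had 523, 625, 427 and 536 CPM in JVM2, 49.6, 77.6, 33.5 and 94.6 CPM in JEKO1 and 80.2, 131, 56.2 and 140.0 CPM in MAVER1. The JVM2 libraries lay above all others, and the log2 difference was 2.82 ± 0.13, adjusted p = 6.94e-09. MDM2, a ubiquitin ligase, was higher as well (1.73 ± 0.08, adjusted p = 6.43e-09), with 124, 149, 115 and 145 CPM in JVM2 and no other library above 52.8 CPM. BAX, a pore-forming BCL2 protein, had 212, 247, 234 and 254 CPM in JVM2, 59.6, 55.4, 55.3 and 49.9 CPM in JEKO1 and 102, 67.6, 101 and 75.3 CPM in MAVER1. FAS, a death receptor named after its values were seen, had a mean of 114 CPM in JVM2, 0.226 in JEKO1 and 12.5 in MAVER1 (log2 difference 6.06 ± 0.09, adjusted p = 2.43e-12).

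SOX11, CD5 and ROR1, markers of MCL, were absent or nearly so from JVM2. Of 13 MCL markers tested (13 listed), 5 were lower (CCND1, SOX11, CD5, ROR1 and CNR1), 1 was higher (CD200) and 7 were not in the set, beside 8.58% lower and 11.0% higher among all genes tested, with a median log2 difference of -0.78. SOX11, the transcription factor that marks most MCL, had 0 CPM in every JVM2 library, 109.7, 154, 116 and 179.8 CPM in JEKO1 and 56, 145, 60.8 and 179.9 CPM in MAVER1. CD5, a surface inhibitor of antigen receptor signaling, had 0.0284, 0.0547, 0.0278 and 0.054 CPM in JVM2, 17.2, 7.25, 6.39 and 3.25 CPM in JEKO1 and 45.5, 22.8, 31 and 16.4 CPM in MAVER1. ROR1, a Wnt5a receptor used as a therapeutic target in MCL, had 2 reads over the JVM2 libraries, against 41.8, 32.9, 43.2 and 35.3 CPM in JEKO1 and 36.5, 47.1, 33.5 and 38.2 CPM in MAVER1. JVM2 lay at or near 0 for these genes under each treatment, whereas the other lines had them in every library. CNR1, the cannabinoid receptor CB1, had 0.993, 0.684, 0.555 and 0.54 CPM in JVM2, 67.2, 83.2, 83.4 and 114 CPM in JEKO1 and 36.8, 52.9, 34.7 and 71.8 CPM in MAVER1. CD200, which pathologists use because MCL usually lacks it, was the exception, with 11.1, 12.3, 14.1 and 13.6 CPM in JVM2, 0, 0, 0.0254 and 0 CPM in JEKO1 and 0 CPM in every MAVER1 library. Against the label of an MCL line, JVM2 thus had CCND1 at a lower level than the other lines and SOX11 and CD5 at or near 0.

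**Figure D3:**
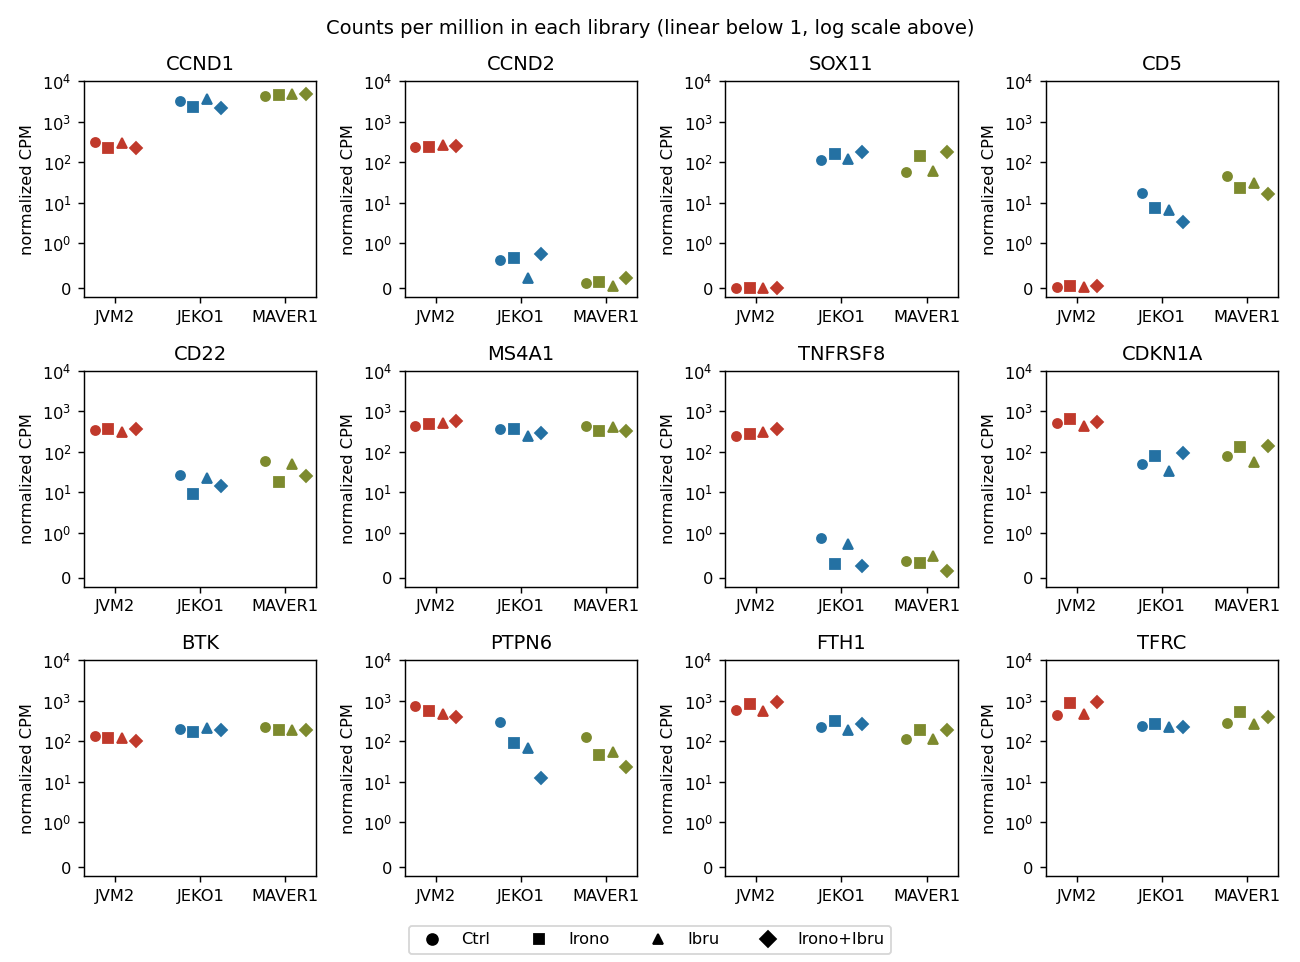
Each panel gives normalized CPM of 1 gene on the vertical axis (linear below 1, log scale above) for the 3 lines on the horizontal axis, with 1 point per library and a marker shape per treatment. CCND1 and SOX11 are lower, and CCND2, CD22, TNFRSF8 and CDKN1A higher, in all 4 JVM2 libraries, while MS4A1 lies at a similar height in the 3 lines.

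Of the B-cell identity genes, most were not in the set and those that were lay mainly lower in JVM2. Of 21 tested (22 listed), 8 were lower (CD79B, BANK1, SPIB, VPREB3, CD72, TCL1A, FCRL1 and BACH2), 1 was higher (CD22) and 12 were not in the set, or 42.9% in the set beside 19.6% of all genes tested, with a median log2 difference of -0.29. MS4A1, which encodes CD20, had 441, 492, 515 and 574 CPM in JVM2, 359, 360.5, 247 and 282 CPM in JEKO1 and 436, 327, 403 and 332 CPM in MAVER1. PAX5, the B-cell commitment factor, had 258, 253, 282 and 285 CPM in JVM2, 454, 305, 478 and 319.6 CPM in JEKO1 and 189.9, 179, 179 and 156 CPM in MAVER1. MS4A1 lay slightly above the other lines in JVM2 (log2 difference 0.57 ± 0.13), and PAX5 lay between them (0.06 ± 0.10, or -0.06 when scaled to library totals). TCL1A, an AKT coactivator of naive B cells, had 2.41, 1.31, 1.64 and 0.945 CPM in JVM2, 1034, 649, 1109 and 492 CPM in JEKO1 and 572, 414, 494 and 311 CPM in MAVER1. BACH2, a repressor of plasma cell differentiation, had 0.114, 0.192, 0.305 and 0.243 CPM in JVM2, 102, 91.7, 176 and 138 CPM in JEKO1 and 56.6, 87.5, 63.2 and 92.7 CPM in MAVER1. VPREB3, an endoplasmic reticulum protein that binds immunoglobulin chains in early B cells, had 6 reads in JVM2, against 36.1, 27.1, 60.5 and 48.7 CPM in JEKO1 and 32.4, 10.7, 45.9 and 32.4 CPM in MAVER1. BANK1, a scaffold of the B-cell receptor (BCR), had 1 read in JVM2. SPIB, an ETS factor of B cells, had a mean of 6.18 CPM in JVM2, 124 in JEKO1 and 138 in MAVER1.

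A minority of germinal centre genes were lower, and a minority of plasma cell genes higher, in JVM2. Of 15 germinal centre genes tested (17 listed), 4 were lower (BCL6, MME, BCL7A and MEF2B) and 0 higher, beside 8.58% and 11.0% of all genes tested, with a median log2 difference of -1.26. BCL6, the master repressor of the germinal centre, had 0, 0.0273, 0 and 0.081 CPM in JVM2, 2.69, 2.08, 1.78 and 1.62 CPM in JEKO1 and 18.6, 7.5, 17.6 and 6.33 CPM in MAVER1. MME (CD10) had 0.0851, 0.0547, 0.0833 and 0 CPM in JVM2, 26.4, 16.7, 43.4 and 14.7 CPM in JEKO1 and 25.2, 17, 36.8 and 8.42 CPM in MAVER1. Of 13 plasma cell genes tested (13 listed), 3 were higher (IRF4, SLAMF7 and TNFRSF13B) and 0 lower, or 23.1% in the set beside 19.6% of all genes tested. Their median log2 difference of 0.53 was not steady, since it was 1.15 in Ctrl and 0.96 in Ibru but -0.08 in Irono and -0.12 in Irono+Ibru, and 1.92 from JEKO1 against 0.22 from MAVER1. IRF4, a factor of activated B cells and plasma cells, had 1224, 1286, 1412 and 1426 CPM in JVM2, 188, 272, 94.7 and 265 CPM in JEKO1 and 284, 464, 295 and 469.6 CPM in MAVER1 (log2 difference 2.35 ± 0.18, adjusted p = 3.82e-07). TNFRSF13B (TACI), a receptor for BAFF and APRIL, had 282, 267, 275 and 265 CPM in JVM2, 51.3, 46.7, 36.5 and 34.7 CPM in JEKO1 and 60.3, 54, 53.4 and 39 CPM in MAVER1. PRDM1, the plasma cell factor BLIMP1, had 64.9, 55.7, 55.6 and 52 CPM in JVM2, 3.15, 4.57, 1.52 and 3.9 CPM in JEKO1 and 13.4, 27.2, 14.9 and 34.9 CPM in MAVER1 and missed the 2-fold minimum against MAVER1 with both drugs. SDC1 (CD138) was far higher than in JEKO1 (log2 difference 6.26) and 1.02 higher than in MAVER1. JCHAIN and XBP1, which act in antibody secretion, did not pass the test against the mean of the other lines (adjusted p = 0.0701 and 0.0643). The mean hid unlike differences from the 2 lines. In the same test XBP1 was higher than in JEKO1 (1.92, adjusted p = 0.000112) and lower than in MAVER1 (-0.86, adjusted p = 0.0177). JCHAIN was lower than in MAVER1 (-1.09, adjusted p = 0.00293) and did not pass against JEKO1 (0.10, adjusted p = 0.736).

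Transcripts that latent EBV proteins are known to raise in B cells stood higher in JVM2 as a list. Of 38 tested (44 listed, 41 matched to the table), 21 were higher and 1 lower (GPR183), against 11.0% and 8.58% of all genes tested, and the median log2 difference was 2.22. The list was written with earlier results of these data known. SLAMF1 (CD150), a self-binding receptor of activated lymphocytes, had 108, 156, 117 and 169.8 CPM in JVM2, 0.127, 0.0718, 0.0254 and 0.0235 CPM in JEKO1 and 0.0559, 0.107, 0.0814 and 0.105 CPM in MAVER1. EBI3, a cytokine subunit of IL-27 and IL-35 found as a gene induced by the virus, had 99, 166, 116 and 185 CPM in JVM2, 0.813, 0.0957, 0 and 0 CPM in JEKO1 and 0.0559, 0.187, 0.108 and 0.0785 CPM in MAVER1. Every JVM2 library had at least 99 CPM of both, and no other library reached 1 CPM. FSCN1 (fascin), an actin-bundling protein, had 439.5, 593, 516 and 636 CPM in JVM2, 5.89, 5.38, 3.37 and 3.9 CPM in JEKO1 and 7.96, 4.08, 6.4 and 3.56 CPM in MAVER1. CCL22, a chemokine for CCR4-bearing T cells, had 76.5, 159, 97.3 and 224 CPM in JVM2, 3.35, 0.0957, 0.102 and 0.165 CPM in JEKO1 and 0.168, 0.32, 1.41 and 0.34 CPM in MAVER1. TRAF1, an adaptor of TNF receptors, had 242, 284, 341 and 355 CPM in JVM2, 24.4, 20.5, 14.7 and 23.8 CPM in JEKO1 and 18.1, 10, 15.1 and 10.7 CPM in MAVER1. JVM2 was above the other lines in each of these genes, and for EBI3, SLAMF1, FSCN1 and CCL22 its libraries with ironomycin held more than those without it. FCER2 (CD23), a low-affinity IgE receptor that EBNA2 is known to raise, averaged 56.8 CPM in JVM2, 0.524 in JEKO1 and 1.35 in MAVER1. CD80, a ligand of CD28, averaged 46.9 CPM in JVM2, 1.14 in JEKO1 and 1.73 in MAVER1. CD86, the other ligand of CD28, averaged 204 CPM in JVM2, 18.5 in JEKO1 and 2.42 in MAVER1. GPR183 (EBI2), an oxysterol receptor that guides B-cell migration, was the exception, with 8.03, 8.67, 8.94 and 9.61 CPM in JVM2, 50.8, 32.4, 40.4 and 30.5 CPM in JEKO1 and 46.5, 44.4, 40.6 and 40.3 CPM in MAVER1. MYC, a target of EBNA2, was lower in JVM2, with a mean of 271 CPM in JVM2, 843 in JEKO1 and 601 in MAVER1 (log2 difference -1.40 ± 0.08, adjusted p = 4.33e-08), but not 2-fold in every comparison. FCER2, CD80, CD86 and MYC were named after their values were seen.

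Promoters were read because EBNA2 acts through RBPJ and LMP1 through NF-kB. The 250 bases upstream of the start site were taken from RefSeq (GRCh38.p14) and searched on both strands for GTGGGAA, the RBPJ motif, and for the NF-kB consensus. A promoter was available for 1326 of the 1800 named higher genes and 968 of the 1332 named lower genes. The RBPJ motif was in 65 promoters of higher genes (4.9%), 40 of lower genes (4.13%) and 582 of 11888 genes tested (4.9%), against 5.43% of all 35116 promoters. The NF-kB motif was in 91 promoters of higher genes (6.86%), 44 of lower genes (4.55%) and 698 of genes tested (5.87%), against 5.21% of all promoters. Of 16 higher genes of the EBV list with a promoter, 2 held the RBPJ motif (EBI3 and FCER2) and 3 the NF-kB motif (CCL22, NFKBIA and MAP3K8). These shares, 12.5% and 18.8%, stood beside 10.7% and 25% of all 28 tested genes of the list with a promoter, so the NF-kB motif was no more frequent among the higher members than in the list as a whole. Matches are shown for EBI3 and FCER2 and for CCL22 and NFKBIA, in the direction of transcription, with the matches in capitals. The window upstream of EBI3 lies at chr19:4229273-4229522 on the plus strand and that of FCER2 at chr19:7702132-7702381 on the minus strand. The window upstream of CCL22 lies at chr16:57358533-57358782 on the plus strand and that of NFKBIA at chr14:35404750-35404999 on the minus strand.
EBI3: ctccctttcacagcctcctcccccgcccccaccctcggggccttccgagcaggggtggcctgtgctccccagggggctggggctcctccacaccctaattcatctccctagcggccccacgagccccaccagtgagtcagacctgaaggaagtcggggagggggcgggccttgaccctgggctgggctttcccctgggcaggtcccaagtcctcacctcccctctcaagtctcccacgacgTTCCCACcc
FCER2: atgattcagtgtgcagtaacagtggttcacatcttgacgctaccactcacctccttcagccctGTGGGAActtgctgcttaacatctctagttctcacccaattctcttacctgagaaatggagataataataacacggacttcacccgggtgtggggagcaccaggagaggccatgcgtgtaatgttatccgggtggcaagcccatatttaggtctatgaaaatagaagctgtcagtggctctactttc
CCL22: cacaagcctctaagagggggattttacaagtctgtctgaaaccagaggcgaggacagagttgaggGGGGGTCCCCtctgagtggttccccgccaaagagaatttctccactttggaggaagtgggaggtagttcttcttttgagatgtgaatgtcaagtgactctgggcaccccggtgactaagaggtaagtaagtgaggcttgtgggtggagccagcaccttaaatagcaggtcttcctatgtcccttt
NFKBIA: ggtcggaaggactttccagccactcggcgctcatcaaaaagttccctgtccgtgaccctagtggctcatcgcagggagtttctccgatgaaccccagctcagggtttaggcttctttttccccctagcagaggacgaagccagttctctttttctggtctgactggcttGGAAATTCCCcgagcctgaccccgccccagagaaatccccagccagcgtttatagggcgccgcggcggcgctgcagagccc
A match is a description of the letters and not a site shown to be bound.

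NF-kB components were in the set less often than other genes. Of 26 NF-kB components tested (27 listed), 3 were higher (TRAF1, NFKBIA and TNIP1) and 0 lower, or 11.5% beside 19.6% of all genes tested. The share that was higher lay close to the background of 11.0%. Against the mean of the other lines, 10 passed the test as higher and 1 as lower, where 20.7% and 19.3% of all genes did. The median log2 difference of the list was 0.46. NFKBIA, which encodes the inhibitor IkB-alpha, had 168, 212, 244 and 254 CPM in JVM2, 51.2, 31.1, 20.3 and 24.2 CPM in JEKO1 and 79.5, 68.6, 80.8 and 71 CPM in MAVER1. TNIP1, a ubiquitin-binding brake on NF-kB, had 534, 564, 563 and 642 CPM in JVM2, 139, 127, 89.5 and 109.6 CPM in JEKO1 and 210.3, 214, 202 and 227 CPM in MAVER1. RELB, a subunit of the noncanonical pathway, had a mean of 47 CPM in JVM2, 77.6 in JEKO1 and 132 in MAVER1, lower than in MAVER1 (log2 difference -1.46) and not past the test against JEKO1.

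TNF ligands and receptors were more often higher than lower in JVM2. Of 31 ligands and receptors tested (33 listed), 12 were higher and 0 lower, beside 11.0% and 8.58% of all genes tested, with a median log2 difference of 1.79. TNF itself had 38, 46.7, 52.3 and 47.7 CPM in JVM2, 0.483, 0.263, 0.0507 and 0.141 CPM in JEKO1 and 0.419, 0.293, 1.44 and 0.445 CPM in MAVER1. TNFSF14 (LIGHT), a ligand of HVEM, had 36, 36.4, 37.2 and 37.2 CPM in JVM2, 0.915, 1.44, 0.228 and 0.423 CPM in JEKO1 and 0.894, 0.374, 0.895 and 0.262 CPM in MAVER1. TNFSF12 (TWEAK), whose reads may be shared with the read-through gene next to it, had 11, 10.5, 11.2 and 8.9 CPM in JVM2, 0.127, 0.0478, 0.152 and 0.165 CPM in JEKO1 and 0.14, 0.133, 0.19 and 0.235 CPM in MAVER1. LTA (lymphotoxin alpha), named after its values were seen, averaged 126 CPM in JVM2, 0.0988 in JEKO1 and 9.96 in MAVER1. Of 17 chemokines and homing receptors tested (33 listed), 5 were higher and 2 lower, or 41.2% together beside 19.6% of all genes tested. Their median log2 difference of 0.45 had no steady direction, at -0.29 in Ctrl, 0.94 in Irono, 0.50 in Ibru and 0.34 in Irono+Ibru. CCR7, which brings B cells to lymph nodes, had 612, 841, 783 and 1055 CPM in JVM2, 60.4, 37, 32.2 and 25 CPM in JEKO1 and 129.6, 112, 159 and 123 CPM in MAVER1. CXCR3, a receptor for interferon-induced chemokines, had 62.8, 30.6, 67.2 and 27.1 CPM in JVM2, 0, 0.0957, 0.0254 and 0 CPM in JEKO1 and 0.252, 0, 0.0543 and 0.0262 CPM in MAVER1. CXCR4, which holds B cells in bone marrow and stroma, was lower, with 144, 159, 144 and 162 CPM in JVM2, 402, 352, 528 and 402 CPM in JEKO1 and 696, 723, 708 and 689 CPM in MAVER1. CCR7 and CXCR3 were thus higher, and CXCR4 and GPR183 lower, in JVM2.

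Of 33 adhesion genes tested (34 listed), 16 were higher and 1 lower (ITGAE), beside 11.0% and 8.58% of all genes tested, with a median log2 difference of 2.41. ITGAL (CD11a), the alpha chain of LFA-1, had 813, 793, 789 and 754 CPM in JVM2, 8.51, 5.02, 5.17 and 4.91 CPM in JEKO1 and 20, 8.57, 19.3 and 7.14 CPM in MAVER1. JVM2 held 133 times the mean of JEKO1 and 57.2 times that of MAVER1 (log2 difference 6.53 ± 0.21, adjusted p = 2.7e-10). ITGB2, the beta chain of LFA-1, averaged 262 CPM in JVM2, 4.14 in JEKO1 and 45.9 in MAVER1. ITGB5, a partner of the alpha-V integrin, reached 98.4, 89.2, 91.3 and 77.8 CPM in JVM2. ITGB3, another such partner, reached 26.4, 36.8, 34.4 and 45.7 CPM in JVM2, with no other library above 0.457 CPM for either. ITGAV, the alpha-V chain, averaged 16.5 CPM in JVM2, 1.04 in JEKO1 and 0.0135 in MAVER1. ITGB2 and ITGAV were named after their values were seen. VCAM1, a ligand of VLA-4, was low throughout, at 4.45, 5.47, 6.97 and 7.42 CPM in JVM2 and at 0 to 0.136 CPM elsewhere. ITGA4, ITGB1 and CD44 were not in the set.

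**Figure D4:**
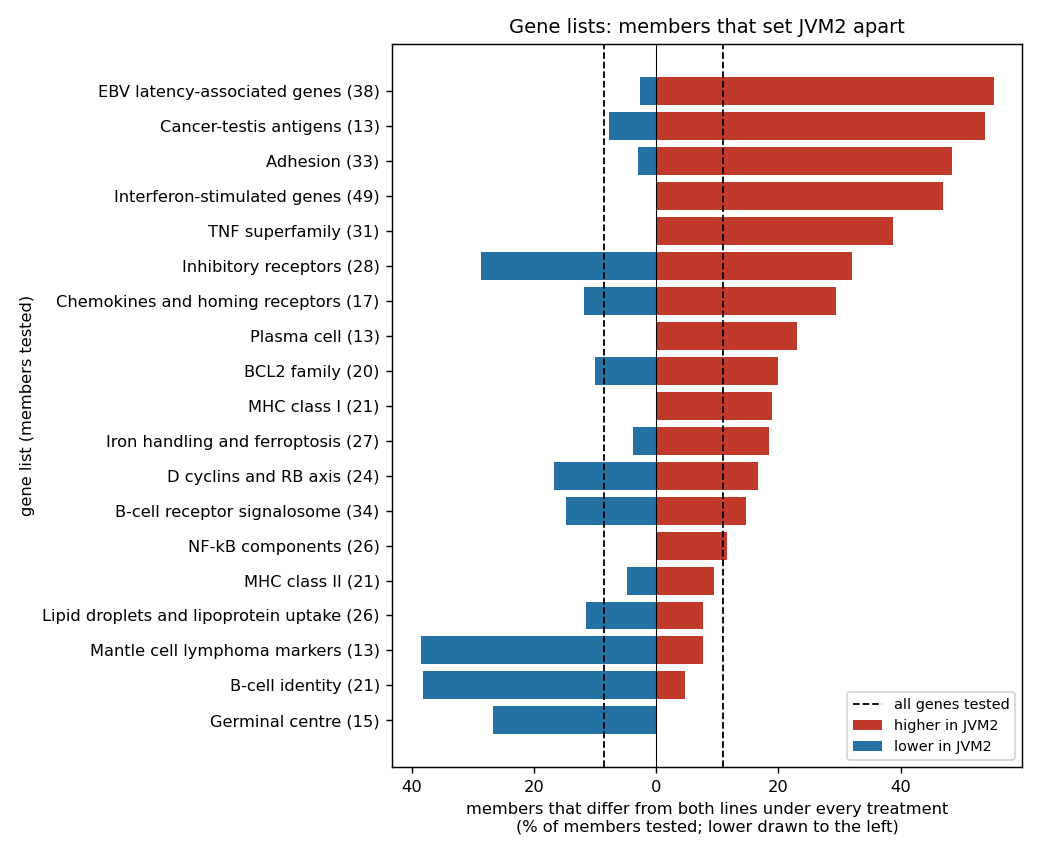
Bars give, for each gene list except the markers of other cell types (number of members tested in brackets), the percentage of tested members higher (red, to the right) and lower (blue, to the left) in JVM2 than in both other lines under every treatment; dashed lines mark 11.0% and 8.58%, the shares of all genes tested. Of the lists drawn, the EBV, cancer-testis, adhesion and interferon lists reach furthest to the right, and the MCL marker and B-cell identity lists furthest to the left.

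As many BCR signaling genes were higher as lower. Of 34 tested (35 listed), 5 were higher (PRKCD, FYN, FGR, ITPR1 and RASGRP1) and 5 lower (among them SYK, PIK3AP1, CD79B and NFATC2), or 29.4% together beside 19.6% of all genes tested, with a median log2 difference of 0.45. CD79B, the BCR signaling chain, had 122, 104, 111 and 97.5 CPM in JVM2, 564, 416, 847 and 476 CPM in JEKO1 and 539.6, 327, 564 and 398 CPM in MAVER1. SYK, the kinase that binds the phosphorylated BCR, had 120.3, 93.6, 109.7 and 88.6 CPM in JVM2, 754, 618, 657 and 523 CPM in JEKO1 and 387, 360.3, 391 and 342 CPM in MAVER1. BTK, the target of ibrutinib, had 133, 119, 122 and 104 CPM in JVM2, 200.2, 171, 213 and 186 CPM in JEKO1 and 223, 194, 191 and 189 CPM in MAVER1 and fell short of the 2-fold minimum (log2 difference -0.72 ± 0.07, adjusted p = 2.42e-06). JVM2 was lower than both lines for these 3 genes in each library. Of the Src family kinases, FGR was at 208, 209, 211 and 216 CPM in JVM2, 21.1, 26.5, 9.84 and 8.23 CPM in JEKO1 and 5.31, 1.41, 2.39 and 0.68 CPM in MAVER1. FYN was at 247, 225, 233 and 211 CPM in JVM2, 6.61, 14, 7.08 and 20.9 CPM in JEKO1 and 0.279, 0.64, 0.326 and 0.968 CPM in MAVER1. FYN and FGR were higher in JVM2, and LYN, the main Src kinase of B cells, was not in the set (log2 difference 0.87 ± 0.12, adjusted p = 4.92e-05).

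Inhibitory receptors and phosphatases differed in both directions. Of 28 tested (30 listed), 9 were higher and 8 lower, or 60.7% together beside 19.6% of all genes tested, with a median log2 difference of -0.26. CD22, a sialic acid-binding inhibitor of the BCR, had 336, 357, 308 and 354 CPM in JVM2, 27.1, 9.19, 22.4 and 14.2 CPM in JEKO1 and 59.3, 17.9, 49.4 and 24.5 CPM in MAVER1. PTPN6 (SHP-1), the phosphatase recruited by CD22, had 740.1, 549, 479.8 and 388 CPM in JVM2, 306, 91.2, 68.3 and 12.5 CPM in JEKO1 and 127, 47.1, 54.1 and 22.7 CPM in MAVER1. Both genes were higher in JVM2 in each treatment, and PTPN6 was lowest with both drugs in all 3 lines. CD274 (PD-L1) had 52.7, 65.5, 52.3 and 74.9 CPM in JVM2, 0.407, 0.311, 0.0761 and 0.541 CPM in JEKO1 and 1.28, 3.36, 1.38 and 3.06 CPM in MAVER1, and PDCD1LG2 (PD-L2) reached 17.5, 20.6, 17.7 and 21.4 CPM in JVM2 against at most 0.102 CPM in the other lines. BTLA, an inhibitory receptor that binds HVEM, was at 41.1, 30.5, 31.6 and 25.4 CPM in JVM2, with 3 reads in JEKO1 and 0 in MAVER1. Lower members were CD72, which had 4.31, 3.97, 2.69 and 2.19 CPM in JVM2, 96.6, 85, 71.4 and 58.5 CPM in JEKO1 and 50.1, 107, 27.7 and 56.5 CPM in MAVER1, and LILRB4, which had 3.15, 2.13, 1.83 and 0.972 CPM in JVM2, 47.5, 47.6, 23.9 and 40.4 CPM in JEKO1 and 247, 321, 154 and 286 CPM in MAVER1. FCRL2, an Fc receptor-like protein, had 2 reads in JVM2.

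Class I genes were in the set about as often as other genes, and those in it were higher in JVM2. Of 21 class I genes tested (21 listed), 4 were higher (B2M, HLA-E, HLA-F and ERAP2) and 0 lower, or 19% in the set beside 19.6% of all genes tested. By direction, 11.0% of all genes tested were higher and 8.58% lower. As higher against the mean of the other lines, 12 passed the test, where 20.7% of all genes did, with a median log2 difference of 1.19. By line the median was 1.61 from JEKO1 and 0.71 from MAVER1. B2M, the light chain of class I, had 1745, 1856, 1555 and 1673 CPM in JVM2, 378, 462, 354 and 369 CPM in JEKO1 and 665, 773, 674 and 704 CPM in MAVER1. HLA-E, a ligand of the NK receptor NKG2A, had 1273, 1274, 1052 and 1064 CPM in JVM2, 146, 126, 147 and 145 CPM in JEKO1 and 376, 331, 356 and 345 CPM in MAVER1. Of 21 class II genes tested (21 listed), 2 were higher (HLA-DQA2 and HLA-DQB2) and 1 lower (HLA-DMB), or 14.3% together, below the 19.6% of all genes tested. Their median log2 difference was 0.80, with 1.03 from JEKO1 and 0.09 from MAVER1. HLA-DMB, which catalyses peptide loading, had 19.4, 16.7, 16.3 and 18 CPM in JVM2, 40.7, 37.9, 41.2 and 49.5 CPM in JEKO1 and 47.6, 44, 49.4 and 48 CPM in MAVER1. HLA-DQA2 and HLA-DQB2 closely resemble HLA-DQA1 and HLA-DQB1, and reads of HLA genes depend on the alleles of a line, so these values are uncertain, and HLA-DQA2 left the set when libraries were scaled to their totals. HLA-DRA had 1551, 1825, 1482 and 1762 CPM in JVM2, 1074, 989, 1056 and 892 CPM in JEKO1 and 1432, 1655, 1485 and 1645 CPM in MAVER1, and CIITA, the class II transactivator, was lower in JVM2 against MAVER1 (-1.54 on the log2 scale).

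Interferon-stimulated genes were higher in JVM2. Of 49 tested (49 listed), 23 were higher and 0 lower than both lines under every treatment (beside 11.0% and 8.58% of all genes), 43 passed the test as higher against the mean of the other lines, where 20.7% of all genes did, and 48 had a positive difference. Their median log2 difference was 2.29. The guanylate-binding protein GBP1 had 58.6, 34.5, 67.8 and 34.6 CPM in JVM2, 0.33, 0.335, 0.228 and 0.259 CPM in JEKO1 and 8.33, 3.12, 8.79 and 1.73 CPM in MAVER1. IFI44L had 118, 69.5, 109.7 and 63 CPM in JVM2, 0.407, 6.2, 0.152 and 3.01 CPM in JEKO1 and 0.14, 0.0267, 0.271 and 0.0523 CPM in MAVER1, with the 2 JEKO1 libraries that received ironomycin above the others of that line. OAS3, an RNA-sensing synthetase named after its values were seen, averaged 189.5 CPM in JVM2, 6.46 in JEKO1 and 16.3 in MAVER1. The interferon difference narrowed with ironomycin, as the list's median of the 4 treatments was 2.83 in Ctrl, 2.14 in Irono, 2.70 in Ibru and 1.98 in Irono+Ibru. In the test of the interaction of line and ironomycin, in which 1351 genes (7.47%) changed, 28 of the 49 did, 26 with a smaller difference and 2 (IFITM2 and IFITM3) with a larger one. For OAS3 the difference fell by 2.32 on the log2 scale (adjusted p = 0.000144).

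Among the BCL2 proteins, 4 of 20 tested (21 listed) were higher (BCL2A1, BAX, BCL2L14 and BCL2L15) and 2 lower (BIK and HRK), or 30% together beside 19.6% of all genes tested, with a median log2 difference of 0.29. BCL2A1, an anti-apoptotic protein that NF-kB is known to induce, had 40.3, 47.9, 37.6 and 42.5 CPM in JVM2, 3.1, 0.335, 0.304 and 0.212 CPM in JEKO1 and 0.14, 0.0801, 0.38 and 0.105 CPM in MAVER1. HRK, a pro-apoptotic BH3-only protein, had 2 reads in JVM2, against 13.7, 10.6, 24.7 and 23.6 CPM in JEKO1 and 5.2, 10, 9.5 and 18.1 CPM in MAVER1. BCL2 had 139, 169.5, 139 and 194 CPM in JVM2, 99.9, 141, 76.3 and 136 CPM in JEKO1 and 593, 1117, 582 and 1183 CPM in MAVER1, lower in JVM2 than in MAVER1 (log2 difference -2.37) and higher than in JEKO1 (0.53). MCL1 and BCL2L1 did not pass the test against the mean of the other lines (0.03 ± 0.07, or -0.09 when scaled to library totals, and 0.15 ± 0.07, adjusted p = 0.732 and 0.0679).

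Iron handling genes were in the set about as often as other genes. Of 27 iron handling and ferroptosis genes tested (30 listed), 5 were higher (FTH1, STEAP3, CYBRD1, HFE and MELTF) and 1 lower (ALOX5), or 22.2% together beside 19.6% of all genes tested, with a median log2 difference of 0.41. FTH1, the ferritin heavy chain that stores iron and has many pseudogenes, had 579, 843, 565 and 932 CPM in JVM2, 227, 316, 193 and 264 CPM in JEKO1 and 115, 191, 112 and 191 CPM in MAVER1. It was higher in JVM2 under every treatment (1.90 ± 0.08, adjusted p = 1.6e-09) and higher with ironomycin than without it in each line. CYBRD1, a ferric reductase, had 25.7, 27.7, 27.1 and 31.3 CPM in JVM2, 0.356, 0.407, 0.558 and 0.4 CPM in JEKO1 and 0.0838, 0.0267, 0.0814 and 0.0262 CPM in MAVER1. MELTF (melanotransferrin), an iron-binding surface protein, had 98.9, 112, 110.4 and 129.6 CPM in JVM2, 5.26, 5.12, 5.55 and 6.77 CPM in JEKO1 and 19.7, 27.4, 16.6 and 23.1 CPM in MAVER1. TFRC, the transferrin receptor, had 436, 888, 481 and 929 CPM in JVM2, 242, 263, 223 and 224 CPM in JEKO1 and 289.6, 537, 267 and 398 CPM in MAVER1 and missed the 2-fold minimum in some treatments. ALOX5, which oxidizes arachidonic acid, was lower, with 2.47, 2.87, 2.25 and 2.21 CPM in JVM2, 238, 182, 264 and 218 CPM in JEKO1 and 122, 129, 117 and 125 CPM in MAVER1. GPX4, the peroxidase that guards against ferroptosis, had 199.8, 240.4, 202 and 252 CPM in JVM2, 149.6, 133, 131 and 112 CPM in JEKO1 and 116, 122, 98.9 and 122 CPM in MAVER1 (log2 difference 0.86 ± 0.09, adjusted p = 5.05e-06).

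Lipid genes were in the set about as often as other genes. Of 26 tested (30 listed), 2 were higher (ACSL1 and SOAT2) and 3 lower (ABCA1, ABCG1 and APOE), or 19.2% together beside 19.6% of all genes tested, with a median log2 difference of 0.21. ABCA1, which exports cholesterol, had 1.36, 0.547, 0.722 and 1.05 CPM in JVM2, 53.6, 26.7, 61.8 and 29.7 CPM in JEKO1 and 41, 10.8, 57 and 12 CPM in MAVER1. SCARB1, the HDL receptor, had 164, 183, 158 and 195 CPM in JVM2, 85.2, 88.7, 89.2 and 96.7 CPM in JEKO1 and 170.0, 138, 156 and 129 CPM in MAVER1. SOAT2, which esterifies cholesterol, was at 4.6, 3.77, 4.14 and 3.32 CPM in JVM2, with 1 read in all in the other lines.

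Cancer-testis genes and markers of other cells were also unequal between lines. Of 13 cancer-testis genes tested (25 listed, 24 matched), 7 were higher (MAGEA1, MAGEA3, MAGEA6, MAGEA12, MAGEC1, MAGEC2 and SSX2) and 1 lower (PRAME, with 3.92, 3.34, 3.39 and 2.83 CPM in JVM2, 275, 216, 267 and 176 CPM in JEKO1 and 90.6, 47.1, 85.5 and 50.7 CPM in MAVER1), with a median log2 difference of 5.28, or 3.29 with genes at 0 in a line set to their bound, and 61.5% were in the set beside 19.6% of all genes tested. By line the median was 2.77 from JEKO1 and 6.99 from MAVER1. Summed, the 13 genes stood at 72.4 to 83.5 CPM in JVM2, 347.2 to 547.5 in JEKO1 and 47.7 to 91.3 in MAVER1. In sum, JEKO1 thus held more of these transcripts than JVM2. A member without reads in the other lines could enter the test only through JVM2, so the filter may have set part of the share in the set. The MAGEA genes are near-identical copies, so their separate values are uncertain. MAGEA3 had 43.4, 42, 44.4 and 39 CPM in JVM2, 0.737, 0.526, 0.862 and 0.988 CPM in JEKO1 and 0 CPM in every MAVER1 library. Markers of other blood and tissue cells were low in all lines. The 6 tested T and NK cell markers summed to 28.9 to 37.8 CPM in JVM2, 5.0 to 15.9 in JEKO1 and 20.9 to 23.9 in MAVER1, and 2 of them (CD3E and NKG7) were higher, with a median log2 difference of 1.57. The 7 tested myeloid markers (12 listed) summed to 20.5 to 24.1 CPM in JVM2, 2.5 to 3.0 in JEKO1 and 3.5 to 4.3 in MAVER1. Of them, 4 (CSF1R, S100A8, S100A9 and CD33, or 57.1%) were higher, with a median of 4.45, or 4.05 with bounds. The filter may have set part of this share too. CSF1R, the M-CSF receptor, had 3.66, 3.91, 3.66 and 4.88 CPM in JVM2, 0.381, 0.263, 0.102 and 0.188 CPM in JEKO1 and 0.0559, 0.107, 0.353 and 0.0523 CPM in MAVER1. Of 5 tested stromal and epithelial markers, CDH1 was higher and EPCAM lower, with a median of -0.58. In bulk RNA, fewer cells of a type and less RNA per cell cannot be told apart, and the part of other cells in these values was not tested.

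The size of 186 of the 3539 differences changed with ironomycin, 119 among higher and 67 among lower genes. The share was 5.99% of higher and 4.32% of lower genes beside 7.47% of all genes tested. The same libraries chose the set, which kept only genes at least 2-fold apart under every treatment. Differences that fell under 2-fold with ironomycin were thus left out, and the lower shares cannot be read as steadier differences. Of the higher genes, JVM2 was raised relative to the other lines with ironomycin in 61 and lowered in 58. Of 13 plasma cell genes, 7 changed and all were lowered. CD22 went the other way, since it fell with ironomycin in JEKO1 and MAVER1 but not in JVM2, and its difference rose by 1.38 on the log2 scale (adjusted p = 0.00104). Doses differed between lines, so line and dose cannot be told apart in these values.

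Genes on chromosome 3 were shifted as a group. Over the 605 genes of chromosome 3 whose mean log2 CPM was 1 or more, the median log2 difference was 0.57, against 0.01 over all such genes, and it was 0.60 from JEKO1 and 0.58 from MAVER1. The median was 0.55, 0.59, 0.56 and 0.63 in the 4 treatments, and 81.7% of these genes lay above 0. Of 942 chromosome 3 genes tested, 165 (17.5%) were higher and 59 (6.26%) lower under every treatment. Chromosomes 6 and 17 followed, with 0.30 and 0.27. On chromosome 8 the median was 0.61 from JEKO1 and -0.23 from MAVER1, so this difference was not one of JVM2 alone. On chromosome 22 it was 0.21 and -0.48. Copy number was not measured here.

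**Figure D5:**
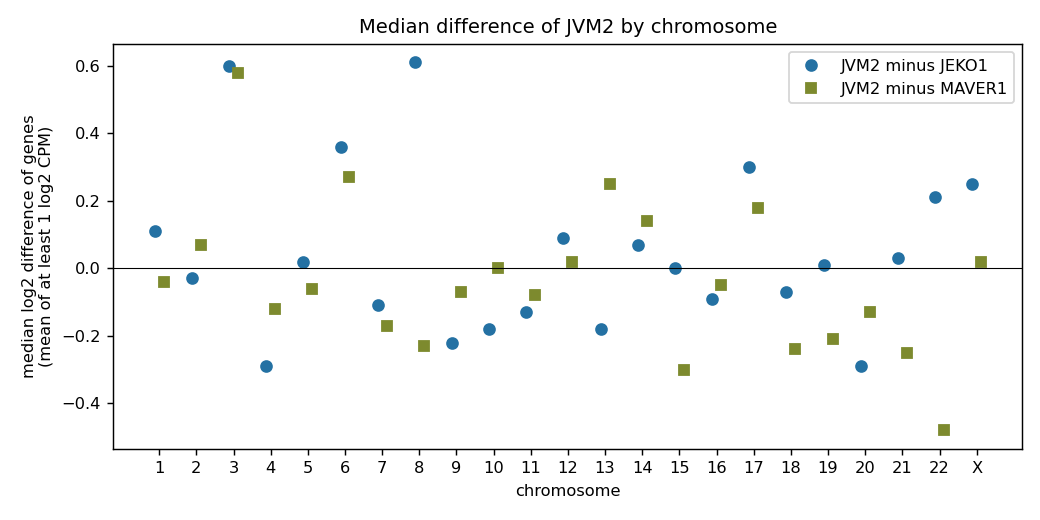
Points give the median fitted log2 difference of genes whose mean log2 CPM was 1 or more on each chromosome (horizontal axis), as JVM2 minus JEKO1 (circles) and JVM2 minus MAVER1 (squares). On chromosome 3 both lie near 0.6, at 0.60 and 0.58, whereas on chromosome 8 they lie on either side of 0.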

How the data were processed

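RNA of 12 libraries (3 lines, 4 treatments, 1 library each) was sequenced as paired ends after a strand-specific preparation. The file deposited by the authors holds raw, unscaled counts for 63677 Ensembl genes. The submitters' processing notes name STAR, DESeq2 and the build GRCh37 without saying what each was used for; the read counter is not given in the sources used here. Symbols were found for 39699 genes; 0 columns were left unused. Gene coordinates were not printed because the annotation at hand (GENCODE, GRCh38) is of another build; it gave only chromosome names and biotypes, and promoters came from RefSeq GRCh38.p14.

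Counts were scaled by TMM, filtered by filterByExpr with line as group and fitted in edgeR 4.0.16 (R 4.3.3; quasi-likelihood F-test) with line and treatment as terms, which left 6 residual degrees of freedom. The Benjamini-Hochberg adjustment ran over all 18084 genes tested, and a call needed a log2 difference of at least 1 beside an adjusted p-value under 0.05. Log2 ratios within a treatment used a prior count of 2. The labels pair libraries by treatment and give no replicate number, so treatment was the block. The interaction fit added a term for each line with ironomycin. No methods text states a design for comparing lines. The scripts were tested on simulated data.

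Genes named were the 12 higher and 12 lower with the largest smallest-of-8 difference and a mean log2 CPM of 1 or more (immunoglobulin, T-cell receptor, XIST and Y-linked genes left out), up to 4 members per list and direction by the same rank, markers that define a list, and genes whose proteins the study measured; exceptions are marked in the text, and some genes are not reported here. The members, the 22 lists and the tests were chosen with earlier results of these data known, and lists were described by counts and medians only. Alternatives were library totals, DESeq2 1.42.0 (size factors or Wald test), other filters, fold minimums and prior counts, no treatment term, leaving out each treatment, and each other line alone. Python 3.11.15, pandas 2.3.3 and matplotlib 3.10.9 served for tables and figures. With 0 reads, up to 3 reads per library are compatible with the count, or 0.081 to 0.0851 CPM in JVM2; this covers counting error only.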

Additional observations from a re-analysis of the deposited data

Results flagged for a closer look

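In 4 of 312 combinations of a named gene and a line, 1 of the 4 libraries lay far from the rest by Dixon's criterion. Chance gives about 1 in 20 for repeat samples. The 4 libraries of a line are 4 treatments, so that rate does not apply to them. Whether a flagged value reflects its treatment was not tested. JCHAIN was at 142 CPM in JEKO1 Irono (other JEKO1 libraries 102 to 104.3), HLA-E at 126 CPM in JEKO1 Irono (145.4 to 146.9), ITGAL at 8.51 CPM in JEKO1 Ctrl (4.914 to 5.175) and BTK at 223 CPM in MAVER1 Ctrl (189 to 193.8).

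Of 142 named genes, 14 had a difference between JVM2 and the other lines that changed with ironomycin in edgeR's quasi-likelihood test of the interaction. The difference moved up in CD22 (1.38 on the log2 scale, adjusted p = 0.00104), TNFRSF8 (1.36, 0.0177), BCL7A (0.92, 0.00769), ITGAL (0.83, 0.0156), TFRC (0.59, 0.0334) and BAX (0.49, 0.0282). It moved down in BCL2L15 (-1.88, 0.0132), FYN (-1.49, 0.00662), JCHAIN (-1.40, 9.24e-05), PRDM1 (-1.16, 0.0174), LILRB4 (-1.15, 0.0194), XBP1 (-1.02, 0.00141), ITPR1 (-0.83, 0.00879) and CDKN1A (-0.75, 0.013). Ironomycin was given at 50 nM to JEKO1 and at 250 nM to JVM2 and MAVER1, and line and dose cannot be told apart.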

How the results depend on the processing

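The count of 7236 genes that differed from the mean of the other lines was 3273 with a mean log2 CPM of 1 or more (11669 genes tested), 4200 with a log2 difference of at least 2 and 13795 with no minimum. The count of 3539 genes that set JVM2 apart was 1618 (758 higher, 860 lower), 2013 and 8847 under these choices, which follow from fewer genes tested or another minimum. With no replicate block, the treatment pairing left out, the counts were 7175 and 3537. Leaving out the libraries of each treatment gave 7130 to 7409 and 3689 to 3815, the latter with 1 treatment fewer to meet. Scaling to library totals moved the median of all genes from -0.0226 to -0.143 and gave 7315 (3450 higher, 3865 lower) and 3485 genes (1838 higher, 1647 lower); the chromosome 3 median was then 0.45. The interaction with ironomycin had 1351 genes in edgeR and 2392 with DESeq2; the cause was not tested. Of the lists, interferon genes counted 21 higher with library totals and class I genes 3.

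Of 142 named genes, 133 kept their direction and their side of the adjusted p threshold of 0.05 against JEKO1 alone, 132 against MAVER1 alone and 137 with library totals. The 2-fold minimum was not part of these counts, and some of the genes crossed it. BAK1 went from 0.83 to 1.12 against JEKO1 alone, TFRC from 1.15 to 0.86 against MAVER1 alone and CIITA from -0.96 to -1.08 with library totals. Against JEKO1 alone the sign turned for BCL2 (0.53), CDKN1B (0.09), JCHAIN (0.10), MCL1 (-0.17), PAX5 (-0.51) and RB1 (-0.47), against MAVER1 alone for BCL2L1 (-0.49) and XBP1 (-0.86), and with library totals for MCL1 (-0.09) and PAX5 (-0.06). A single culture per line and treatment limits these values more than depth does.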
